A study of Mus musculus with 3 samples.

Results

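Killer lectin-like receptors are C-type lectin proteins on the surface of natural killer (NK) cells and of some T cells. Here 10 of their genes, Klra4, Klra7, Klra8, Klra9, Klrb1c, Klrc1, Klrc2, Klrd1, Klrk1 and Klrg1, were chosen by symbol among the 32285 genes of the matrices and followed through NK cells, memory CD8 T cells and the other cells of mouse blood. An NK cell reads the balance of inhibitory receptors, which bind major histocompatibility complex (MHC) class I molecules on healthy cells, and of activating receptors, which bind stress-induced or viral ligands. In mice, the Ly49 proteins encoded by Klra genes do most of the classical MHC class I recognition, and the CD94/NKG2 dimers recognise the nonclassical molecule Qa-1. Each Ly49 gene is switched on in only some NK cells, so that the NK cells of 1 mouse carry many combinations.

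Single-cell RNA sequencing in droplets, which reads the 3′ ends of transcripts, was run on peripheral blood mononuclear cells (PBMCs) of female C57BL/6 mice. The study asked how glycyrrhizic acid (GA), a saponin of licorice root, acts on the blood immune cells of aged mice. The 3 libraries were from young mice aged 8 weeks (Young), from mice aged 16 months (Aged) and from mice aged 16 months that were given GA for 1 month (Aged-GA). GA was injected into the tail vein every other day, and the control mice received PBS according to the methods, whereas the labels give no treatment. The young mice were purchased and the aged mice came from the laboratory's own stock, so age and source cannot be told apart. With 1 library per group there were no replicates, no test was run, and each interval below is an exact 95% interval that covers counting error only.

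The deposited matrices held 58894294 to 98155671 unique molecular identifiers (UMIs, each 1 captured RNA molecule), and 8851 Young, 10238 Aged and 12648 Aged-GA cells passed the filters of the study. Pairs of libraries shared 50 to 62 cell barcodes. Cells were put in classes by marker genes that include none of the killer lectin-like receptors. NK-gated cells (at least 4 of 10 NK markers such as Ncr1, Gzma and Prf1, with no Cd3d, Cd3e or Cd3g UMI) numbered 302, 239 and 236, and memory CD8-gated T cells (Cd8a or Cd8b1 with at least 5 of 9 markers such as Ccl5 and Cxcr3) numbered 171, 364 and 869. Both gates divide a range of marker numbers, since 11, 16 and 8 NK-gated cells sat at the limit of 4 markers, while 87, 167 and 269 memory CD8-gated T cells sat at the limit of 5 and 156, 135 and 164 CD8 T cells fell 1 marker short. In a clustering that ignored the receptor genes, 769 of the 777 NK-gated cells (99.0%) fell in 1 cluster, whereas 857 of the 1404 memory CD8-gated T cells (61.0%) fell in their leading cluster.

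All 10 genes were highest in NK-gated cells. Levels are counts per 1000000 UMIs (CPM), the UMIs of a gene summed over the cells of a class and divided by all UMIs of those cells, and values of the 3 libraries follow the order Young, Aged, Aged-GA. Among 12 classes with at least 20 cells in each library, the lowest NK library lay above the highest library of the next class for 10 of 10 genes. T cells with NK markers had Cd3 UMIs and at least 4 NK markers, no Cd4 or Cd8 UMI and fewer than 2 γδ markers. They came next for 9 of the 10 genes, and regulatory T cells came next for Klrg1. Below these, the ranges of γδ T cells and memory CD8-gated T cells overlapped for Klra4, Klra7, Klrc1, Klrc2, Klrd1 and Klrg1. B-gated cells, which should lack these receptors, held all 10 genes together at 37.5, 29.4 and 32.1 CPM, against 6835, 5017 and 5780 CPM in NK-gated cells. The map of levels by class shows this order, and it also shows that Klrd1 reached further into the T cells than the other 9 genes.

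**Figure D1:**
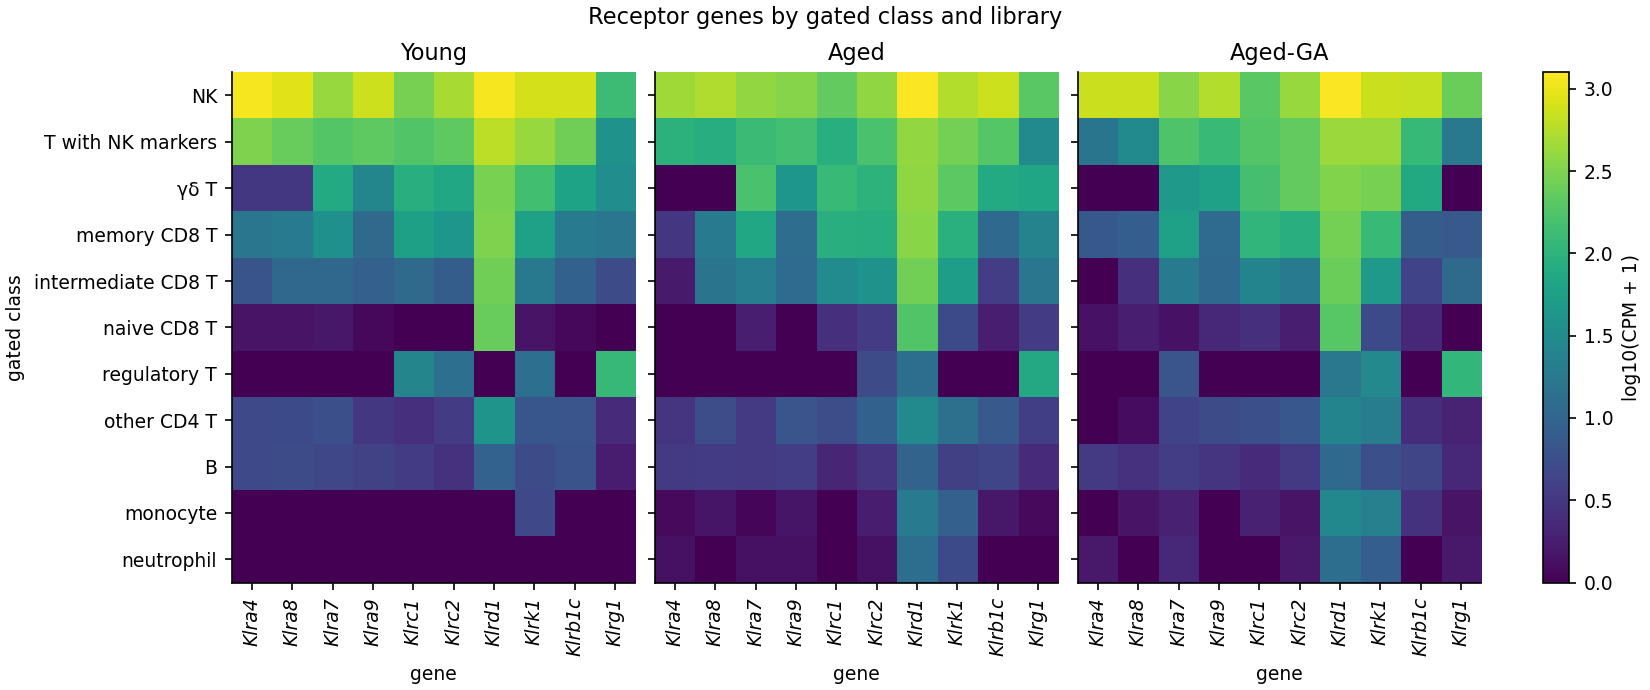
Level of each receptor gene (columns) in each gated class (rows) of the Young, Aged and Aged-GA libraries, as log10(CPM + 1) in color. NK-gated cells form the brightest row in each library, Klrd1 is bright in all CD8 T classes, and regulatory T cells are bright for Klrg1.

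Compared with memory CD8-gated T cells, NK-gated cells held at least 2-fold higher levels of 10 of the 10 genes in Young, where 19.7% of the genes compared were that much higher. The counts were 10 of 10 in Aged, against 9.13% of genes, and 9 of 10 in Aged-GA, against 13.8% of genes, with Klrc1 below the limit at a log2 ratio of 0.89 (0.64 to 1.13). None of the 10 genes was at least 2-fold lower in NK-gated cells, where 4.98%, 4.91% and 7.97% of genes were. The widest gap was that of Klra4, with log2 ratios of 6.21, 7.78 and 6.85. The narrowest gaps to memory CD8-gated T cells were those of Klrd1 (CD94) and Klrc1 (NKG2A). Klrd1 had log2 ratios of 1.85, 1.76 and 2.09. The median log2 ratio over all genes compared was 0.51, 0.26 and 0.34, and the NK and memory CD8 T gates share 3 markers (Nkg7, Il2rb and Eomes).

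Klra4 encodes Ly49D and Klra8 encodes Ly49H, which are activating receptors that signal through the adaptor DAP12, and Ly49H recognises a protein of mouse cytomegalovirus. Klra7 encodes Ly49G and Klra9 encodes Ly49I, which are inhibitory receptors for MHC class I. Among the receptor genes looked up here, the 4 genes follow each other on the minus strand of chromosome 6 of GRCm38. Klra4 is at chr6:130043731-130067271, Klra8 at chr6:130115226-130129898, Klra9 at chr6:130178675-130193112 and Klra7 at chr6:130218605-130233322. Together the 4 genes span 0.19 megabases of the NK gene complex. Their promoters are shown because the levels of Klra4, Klra8 and Klra9 differed between the Young and the Aged library while that of Klra7 did not beyond its interval. Each sequence of RefSeq (GRCm38.p6, minus strand) runs from 250 bases before the transcription start to 50 bases after it, at chr6:130067222-130067521 for Klra4, chr6:130129849-130130148 for Klra8, chr6:130193063-130193362 for Klra9 and chr6:130233273-130233572 for Klra7. Capitals mark TTTCCTCTTTT, the longest run of bases that all 4 share.
Klra4: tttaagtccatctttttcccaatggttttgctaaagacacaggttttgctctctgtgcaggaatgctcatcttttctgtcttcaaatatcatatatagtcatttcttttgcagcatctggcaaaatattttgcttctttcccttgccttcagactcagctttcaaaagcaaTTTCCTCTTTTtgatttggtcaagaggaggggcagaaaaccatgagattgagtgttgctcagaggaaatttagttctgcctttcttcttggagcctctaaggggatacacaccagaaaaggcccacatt
Klra8: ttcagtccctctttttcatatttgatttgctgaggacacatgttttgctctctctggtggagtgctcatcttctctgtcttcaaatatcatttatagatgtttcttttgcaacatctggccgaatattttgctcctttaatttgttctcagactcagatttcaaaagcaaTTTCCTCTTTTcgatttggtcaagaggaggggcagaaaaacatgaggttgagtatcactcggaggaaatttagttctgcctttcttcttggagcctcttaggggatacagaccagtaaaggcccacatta
Klra9: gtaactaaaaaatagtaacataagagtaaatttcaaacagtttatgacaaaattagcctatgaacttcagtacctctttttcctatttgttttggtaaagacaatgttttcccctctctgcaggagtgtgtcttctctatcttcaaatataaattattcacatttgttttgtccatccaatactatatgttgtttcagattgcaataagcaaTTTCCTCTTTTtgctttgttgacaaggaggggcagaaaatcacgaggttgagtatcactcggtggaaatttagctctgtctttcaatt
Klra7: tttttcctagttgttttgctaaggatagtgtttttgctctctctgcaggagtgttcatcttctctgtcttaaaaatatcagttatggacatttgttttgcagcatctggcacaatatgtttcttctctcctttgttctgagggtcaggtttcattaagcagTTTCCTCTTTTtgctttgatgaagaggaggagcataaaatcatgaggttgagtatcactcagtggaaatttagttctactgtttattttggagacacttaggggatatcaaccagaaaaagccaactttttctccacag
Klra4 and Klra8 were identical at 86.3% of the 300 bases after alignment. Klra7 was identical to them at 76.7% and 77.3%, and Klra9 at 60.3% and 61.3%. Pairs of a Ly49 promoter with one of the other promoters at hand were at 43.7% (Klra9 and Klrb1c) to 54.3% (Klra7 and Klrc2). The shared run starts at −38 from the transcription start in Klra9, and at −79, −80 and −89 in Klra4, Klra8 and Klra7. The window of Klra9 is thus offset against the others, so its identity values cannot be ranked against those of Klra7. The shared run of 11 bases was found, on either strand, in 49 of 32851 promoters of the same length (0.149%). The RUNX motif TGTGGT, searched on both strands, was in 0 of the 4 Ly49 promoters and in 4 of the 4 other promoters at hand (Klrb1c, Klrk1, Klrc1 and Klrc2), against 16.8% of all promoters. Of the other motifs searched, TGANTCA (AP-1) was in 0 of 4 and 2 of 4, and TCACACC (T-box) and CCGGAAG (ETS) were in none of these promoters, against 7.81%, 3.98% and 8.86% of all promoters. A match is a description of letters and not a site at which a factor was measured.

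In NK-gated cells, 3 of the 4 Ly49 genes were lower in Aged than in Young. Klra4 was at 1144 CPM (1079 to 1212) in Young and 459 CPM (414 to 507) in Aged, with Aged-GA at 703 CPM (648 to 762). The 3 intervals did not overlap, and Aged-GA lay between the other libraries. The log2 ratio of Klra4 was −1.32 (−1.49 to −1.15) for Aged over Young and 0.62 (0.43 to 0.80) for Aged-GA over Aged. Klra9 was at 727, 344 and 555 CPM, with log2 ratios of −1.08 (−1.28 to −0.88) for Aged over Young and 0.69 (0.48 to 0.90) for Aged-GA over Aged. Klra8 was at 915, 532 and 703 CPM, with log2 ratios of −0.78 (−0.95 to −0.62) and 0.40 (0.22 to 0.58). These genes had the same order of libraries, Young above Aged-GA above Aged, although an activating pair and an inhibitory gene are among them. Klra7 was at 422, 391 and 357 CPM, with log2 ratios of −0.11 (−0.32 to 0.10) and −0.13 (−0.36 to 0.10), and both of these intervals include no difference. For Aged-GA over Young the log2 ratio of Klra7 was −0.24, with an interval below 0. Where the cells of the NK cluster replaced the gated cells, the Aged-GA over Aged ratio of Klra8 became −0.05, that of Klra4 0.28 and that of Klra9 0.44.

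**Figure D2:**
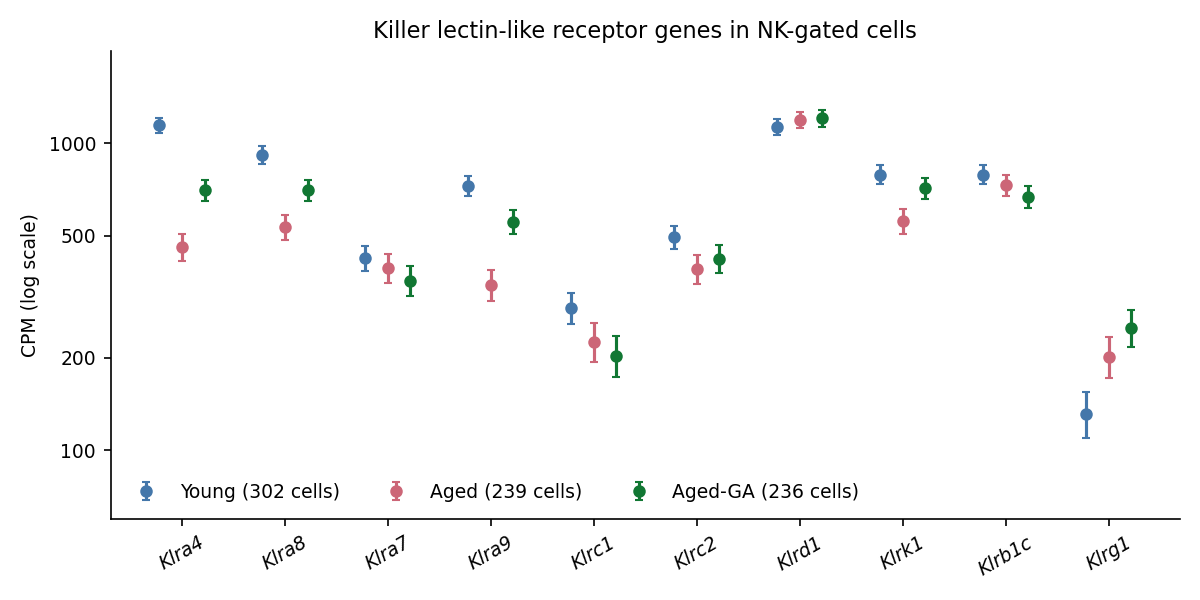
Level of each receptor gene in NK-gated cells, in CPM on a log axis, for the Young (302 cells), Aged (239 cells) and Aged-GA (236 cells) libraries, with exact 95% intervals of counting error. Klra4, Klra8, Klra9, Klrk1 and Klrc2 are highest in Young and lowest in Aged. Klrg1 and Klrd1 are lowest in Young, and Klrd1 lies at 1130 to 1206 CPM in each library.

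The lower levels went with fewer cells that held a UMI and with fewer UMIs in those cells. Klra4 was found in 58.3%, 38.1% and 46.6% of the NK-gated cells, with 6.55, 4.28 and 5.45 UMIs per cell that held it. After each cell was thinned to 1000 UMIs, which left out 2, 11 and 1 cells, the shares were 47.3% (41.6 to 53.2), 25.4% (19.9 to 31.6) and 32.3% (26.4 to 38.7). In B-gated cells the thinned shares were 0.193%, 0.170% and 0.0755%, and the median UMIs per cell were 3036, 3041 and 3367 in NK-gated cells and 3439, 3113 and 3795 in B-gated cells. Klra9 was detected in 41.0%, 28.1% and 26.8% of the thinned NK-gated cells and Klra8 in 44.3%, 31.6% and 35.7%. The thinned share of Klra9 was thus no higher in Aged-GA than in Aged, while its UMIs per cell that held it were 4.11, 2.92 and 3.94 in the 3 libraries. Klra7 was detected in 27.0%, 28.5% and 25.5% of the thinned cells.

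Counted per cell, none of the 4 Ly49 genes was detected in 13% (9.41 to 17.3) of the thinned NK-gated cells of Young. That share was 32.0% (26.01 to 38.5) in Aged and 26.8% (21.3 to 33.0) in Aged-GA. The mean number of the 4 genes detected per cell was 1.60, 1.14 and 1.20. Exactly 3 of the 4 genes were detected in 16.0%, 8.77% and 7.66% of cells. The Aged and Aged-GA intervals overlap at each number of genes, and those of Young and Aged do not overlap at 0 genes. Without thinning, the means were 2.26, 1.70 and 1.97.

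**Figure D3:**
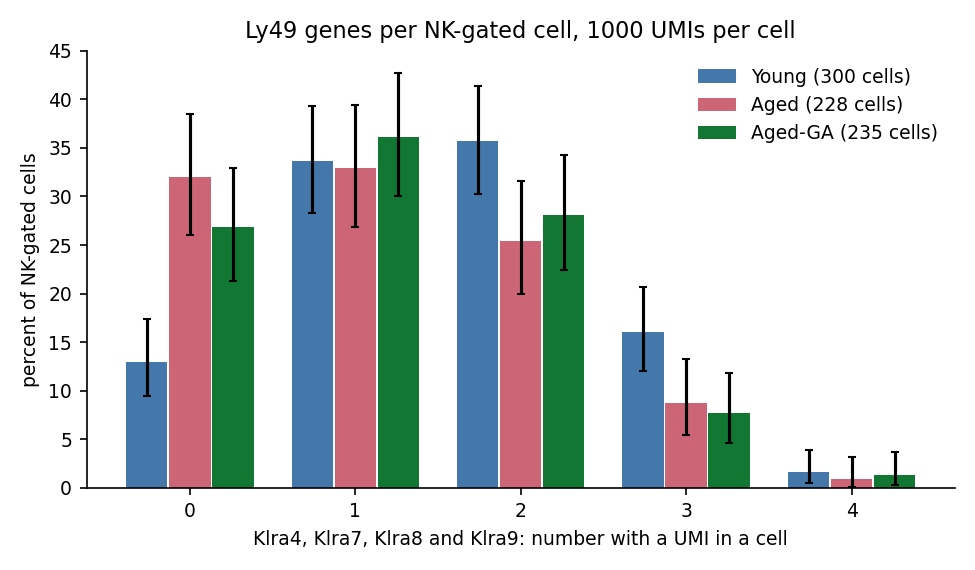
Share of NK-gated cells (y axis, percent) in which 0 to 4 of the genes Klra4, Klra7, Klra8 and Klra9 had a UMI (x axis) after thinning to 1000 UMIs per cell, with exact 95% binomial intervals, for 300 Young, 228 Aged and 235 Aged-GA cells. The bar for 0 genes is at 13% for Young, 32.0% for Aged and 26.8% for Aged-GA.

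The make-up of the 4 Ly49 genes differed between classes. In NK-gated cells, the inhibitory genes Klra7 and Klra9 gave 35.8% (34.1 to 37.5) of the UMIs of the 4 genes in Young, against 42.6% (40.1 to 45.2) and 39.3% (37.2 to 41.5) in the libraries of aged mice. In memory CD8-gated T cells their share was 58.1% (48.6 to 67.2), 80.7% (75.1 to 85.4) and 83.7% (80.5 to 86.5). In γδ T cells (80, 48 and 84 cells) it was 96.0% (86.3 to 99.5), 100% (92.8 to 100) and 100% (92.9 to 100), from 50, 49 and 50 UMIs. Few γδ T cells gave these UMIs, with Klra7 in 9, 10 and 15 cells and Klra9 in 4, 4 and 8 cells. The intervals of these shares count UMIs and do not cover the spread between cells. The activating genes Klra4 and Klra8 had 2, 0 and 0 UMIs together in γδ T cells. In T cells with NK markers (37, 64 and 93 cells) the share was 41.9% (35.0 to 49.1), 60.5% (52.4 to 68.2) and 87.4% (81.7 to 91.9), with intervals that do not overlap. In that class Klra4 was at 311, 96.3 and 15.1 CPM, from 8, 5 and 3 cells with a UMI, while Klra7 was at 187, 128 and 176 CPM. The highest single cell gave 38.5%, 42.4% and 75.0% of these Klra4 UMIs. In B-gated cells the share was 45.4%, 50.6% and 52.7%.

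**Figure D4:**
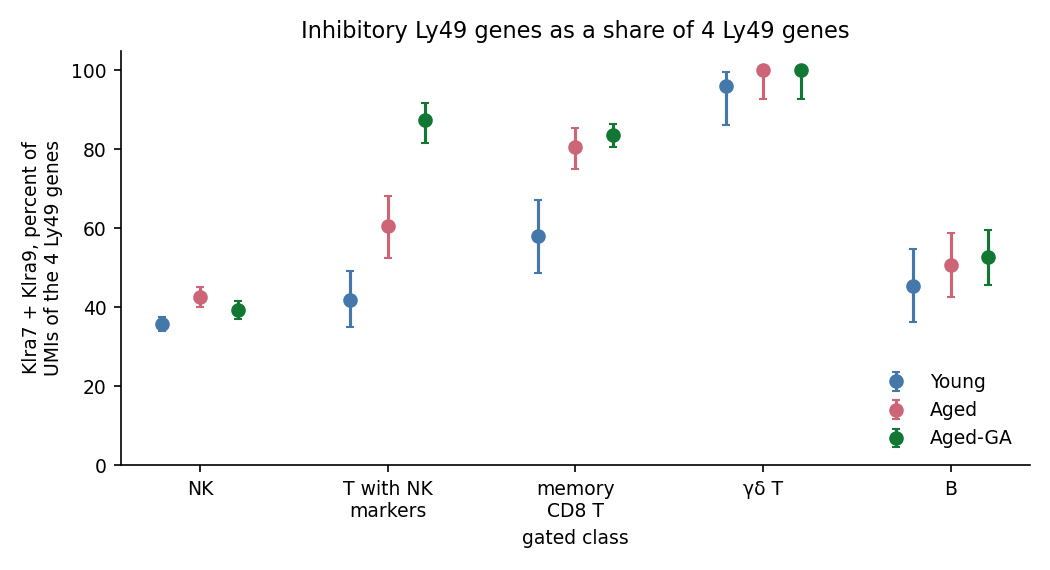
UMIs of the inhibitory genes Klra7 and Klra9 as a percent of the UMIs of Klra4, Klra7, Klra8 and Klra9 (y axis) in 5 gated classes (x axis) of the Young, Aged and Aged-GA libraries, with exact 95% binomial intervals. NK-gated cells lie at 35.8% to 42.6%, memory CD8-gated T cells at 58.1% to 83.7% and γδ T cells at 96.0% to 100%.

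Reads from near-identical Ly49 genes can be lost or misplaced by any counter that drops shared reads. Of the windows of 50 bases in the last 500 bases of each transcript, the part that 3′ counting reads, 44.8% for Klra9, 27.5% for Klra7, 13.1% for Klra8 and 4.66% for Klra4 also occurred in a transcript of another gene. The levels of Klra9 and Klra7 are therefore the least certain of the 4.

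Klrd1 (chr6:129591782-129598775, plus strand) encodes CD94, which pairs with the proteins of Klrc1 (chr6:129666015-129678973, minus strand; NKG2A, inhibitory) and Klrc2 (chr6:129647496-129660689, minus strand; NKG2C, activating). In NK-gated cells Klrd1 was the steadiest of the 10 genes, at 1130 CPM (1066 to 1198), 1190 CPM (1117 to 1265) and 1206 CPM (1133 to 1282). Its log2 ratio was 0.07 (−0.05 to 0.20) for Aged over Young and 0.02 (−0.11 to 0.15) for Aged-GA over Aged. Klrc1 was at 290, 225 and 203 CPM, with log2 ratios of −0.36 (−0.63 to −0.10) and −0.15 (−0.45 to 0.16). Klrc2 was at 493, 389 and 420 CPM, with log2 ratios of −0.34 (−0.55 to −0.14) and 0.11 (−0.11 to 0.33). Both partners were lower in Aged than in Young beyond counting error while CD94 was not, and neither differed between Aged-GA and Aged beyond it. Of the 50-base windows at the end of the Klrc1 transcript 56.3% also occur in Klrc2, so that the level of Klrc1 is uncertain, whereas no such window was shared at the ends of Klrc2, Klrd1, Klrk1, Klrb1c and Klrg1.

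The share of NK-gated cells with Klrc1 was lower among those with Klra4 than among those without it in each of the 3 libraries, a pair picked after all pairs were seen. Among thinned cells, Klrc1 was detected in 11.3% (6.58 to 17.7) of 142 cells with Klra4 and in 27.8% (21.02 to 35.5) of 158 cells without it in Young. The shares were 5.17% (1.08 to 14.4) of 58 and 21.2% (15.3 to 28.1) of 170 cells in Aged, and 6.58% (2.17 to 14.7) of 76 and 21.4% (15.3 to 28.6) of 159 cells in Aged-GA. The intervals do not overlap in any of the libraries. For Klra9 the shares of Klrc1 with and without it were 19.5% and 20.3% in Young, 12.5% and 18.9% in Aged, 15.9% and 16.9% in Aged-GA, and these intervals overlap. A cell without a UMI may still express a gene at this depth.

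Outside NK cells, Klrd1 was the receptor gene that naive CD8 T cells held. It was at 235 CPM (224 to 247) in 1154 Young, 178 CPM (155 to 203) in 214 Aged and 198 CPM (181 to 216) in 380 Aged-GA naive CD8 T cells, whereas each of the other 9 genes was at 4.03 CPM or below. In B-gated cells Klrd1 was at 8.34, 8.57 and 10.4 CPM. It was found in 65.0%, 50.9% and 60.3% of naive CD8 T cells, and after thinning in 21.5%, 16.8% and 14.5%, against 0.482%, 0.557% and 0.793% of B-gated cells. CD94 RNA was thus present in these cells while Klrc1 and Klrc2, its partners, had at most 4 UMIs each in any library. Of all Klrd1 UMIs, naive CD8 T cells gave 26.5%, 5.19% and 7.25%, and the class itself made up 13.04%, 2.09% and 3.00% of cells.

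Klrk1 (chr6:129610323-129623864, minus strand) encodes NKG2D, an activating receptor for stress-induced ligands, and Klrb1c (chr6:128778485-128789215, minus strand) encodes NK1.1, the antigen by which NK cells of C57BL/6 mice are usually stained. In NK-gated cells Klrk1 was at 791 CPM (737 to 848), 557 CPM (507 to 609) and 713 CPM (657 to 772). Its log2 ratio was −0.51 (−0.67 to −0.34) for Aged over Young and 0.36 (0.18 to 0.53) for Aged-GA over Aged, the order of libraries seen for Klra4, Klra8 and Klra9. Klrc2 had this order too, but its interval for Aged-GA over Aged includes no difference. Klrk1 was detected in 56.0%, 42.5% and 45.5% of the thinned cells. Klrb1c was at 791, 729 and 670 CPM, with log2 ratios of −0.12 (−0.27 to 0.03) and −0.12 (−0.29 to 0.05), and it was found in 89.7%, 86.6% and 86.0% of the unthinned cells. Nearly the same share of cells in each library thus held the RNA of the antigen that commonly defines them.

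Klrg1 (chr6:122270596-122282882, minus strand) lies 6.5 megabases from the other 9 genes, which together span 1.45 megabases. It encodes an inhibitory receptor for cadherins that marks mature NK cells and short-lived effector T cells. In NK-gated cells it was at 131 CPM (110 to 155), 202 CPM (173 to 234) and 250.0 CPM (218 to 286). It was the only one of the 10 genes that was higher in Aged than in Young beyond counting error, with a log2 ratio of 0.62 (0.29 to 0.96), and its log2 ratio was 0.31 (0.01 to 0.61) for Aged-GA over Aged and 0.93 (0.61 to 1.26) for Aged-GA over Young. It was detected in 12.3%, 16.2% and 21.7% of the thinned NK-gated cells, against 0 of 2074, 0 of 4129 and 2 of 5296 thinned B-gated cells. Without thinning, Klrg1 was found in 29.1%, 42.7% and 48.3% of NK-gated cells and in 0.289%, 0.315% and 0.321% of B-gated cells. Regulatory T cells held Klrg1 at 118, 73.2 and 111 CPM, from 2 of 21, 8 of 38 and 4 of 25 cells, and at most 5 UMIs of each of the other 9 genes.

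The CD94/NKG2 genes and Klrk1 were also held by the unconventional T cell classes. In γδ T cells Klrc1 was at 89.8 CPM (64.7 to 121), 124 CPM (83.4 to 176) and 154 CPM (120 to 193). Klrc2 was at 70.5 CPM (48.6 to 99.0), 98.8 CPM (63.3 to 147) and 227 CPM (186 to 274), and Klrk1 was at 145 CPM (113 to 184), 206 CPM (153 to 272) and 288 CPM (242 to 340). For Klrc2 the Aged-GA interval lay above the other intervals, whereas for Klrc1 the intervals of neighbouring libraries overlapped. The Klrc2 UMIs came from 17, 13 and 40 γδ T cells. Its thinned shares were 6.25% (2.06 to 13.99), 10.4% (3.47 to 22.7) and 17.9% (10.35 to 27.7), with intervals that overlap. Klrg1 had 15 UMIs in 80 Young and 16 UMIs in 48 Aged γδ T cells, and 0 UMIs in 84 Aged-GA γδ T cells. The Young UMIs came from 5 cells, 1 of which held 66.7% of them, and the Aged UMIs came from 8 cells. In T cells with NK markers Klrd1 was at 613, 394 and 426 CPM, Klrk1 at 412, 280.0 and 425 CPM and Klrb1c at 268, 193 and 117 CPM. Klrb1c was lowest in Aged-GA, while Klrd1 and Klrk1 were lowest in Aged.

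Over the 10 genes in NK-gated cells, 2 (Klra4 and Klra9) were at least 2-fold lower in Aged than in Young and 0 were at least 2-fold higher, where 1.3% and 2.72% of 4601 genes compared were. The median log2 ratio was −0.35, against 0.04 over all genes. With the cells of the NK cluster in place of the gated cells, 0 of the 10 genes were 2-fold apart, and the ratios of Klra4 and Klra9 were −0.97 and −0.81. For Aged-GA over Aged 0 of the 10 genes passed 2-fold in either direction, where 0.353% of 4529 genes were higher and 0.927% lower, and the medians were 0.21 and 0.04. For Aged-GA over Young 0 passed as well, where 2.24% of 4637 genes were higher and 0.884% lower, and the medians were −0.24 and 0.07. These comparisons share libraries and are not independent. Markers of other cells differed between the NK-gated cells of the libraries too: 8 neutrophil markers summed to 5.96 CPM in Young, with 5 of the 8 at 0, to 256 CPM in Aged, with none at 0, and to 196 CPM in Aged-GA, with 1 at 0. The 8 monocyte markers summed to 130, 244 and 153 CPM, with 5, 1 and 3 at 0, and the 10 NK markers to 24840, 22340 and 22400 CPM. The part of these cells in the receptor levels was not tested.

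In memory CD8-gated T cells the CPM of Klrc1, Klrc2 and Klrk1 was higher in Aged than in Young beyond counting error. Klrc1 was at 56.4 CPM (44.98 to 69.8), 88.7 CPM (77.2 to 102) and 110 CPM (102 to 118). Klrc2 was at 41.0, 85.4 and 87.9 CPM and Klrk1 at 58.4, 91.7 and 126 CPM. The log2 ratios for Aged over Young were 0.65 (0.28 to 1.04) for Klrc1, 1.06 (0.64 to 1.497) for Klrc2 and 0.65 (0.29 to 1.03) for Klrk1, each above the median of 0.29 over all 6077 genes compared. The intervals of Klrc1 and Klrk1 reach down to that median, and that of Klrc2 does not. For Aged-GA over Aged they were 0.31 (0.09 to 0.53), 0.04 (−0.19 to 0.28) and 0.46 (0.25 to 0.68), where the median of all genes was −0.07. With the stricter gate of 6 markers the Aged over Young ratios of Klrc1 and Klrk1 became 0.0959 and −0.13.

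Of the 4 Ly49 genes chosen here, Klra7, the inhibitory Ly49G, had the highest level in memory CD8-gated T cells. It was at 34.9 CPM (26.1 to 45.8), 70.3 CPM (60.1 to 81.8) and 58.5 CPM (53.1 to 64.3), and its log2 ratio for Aged over Young was 1.01 (0.55 to 1.49). Klra4, Klra8 and Klra9 lay between 2.09 and 17.6 CPM in these cells, near the 1.78 to 4.17 CPM of B-gated cells at the lower end. They came from few cells: 6, 2 and 14 cells held Klra4, and 1 of the 6 Young cells held 52.2% of its UMIs there. Klra8 was at 17.5, 17.6 and 7.45 CPM, with a log2 ratio of −1.24 (−1.84 to −0.62) for Aged-GA over Aged. Klrd1 was at 313, 350 and 284 CPM, with log2 ratios of 0.16 (−0.00 to 0.33) and −0.31 (−0.42 to −0.19). Klrb1c was at 17.5, 10.5 and 7.18 CPM, against 5.27, 3.49 and 3.38 CPM in B-gated cells, so that NK1.1 RNA was low in this class.

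Klrg1 was at 15.4 CPM (9.79 to 23.2), 23.4 CPM (17.7 to 30.4) and 6.37 CPM (4.68 to 8.47) in memory CD8-gated T cells. Its log2 ratio for Aged-GA over Aged was −1.88 (−2.47 to −1.29), the largest difference of the 10 genes in this comparison. Memory CD8-gated T cells with a UMI of Gzmk, one of the 9 markers of the gate, numbered 15, 90 and 127 and held Klrg1 at 113, 89.6 and 36.9 CPM. Those without Gzmk numbered 156, 274 and 742 and held it at 6.59, 7.29 and 2.45 CPM. Klrg1 thus went with Gzmk in each library. Its CPM was lower in Aged-GA than in Aged on both sides of this split, which was chosen after the values were seen. After thinning, the shares of Aged and Aged-GA cells with Klrg1 were 2.47% (1.14 to 4.64) and 1.38% (0.716 to 2.4) over the class. With Gzmk they were 6.67% (2.49 to 13.95) and 5.51% (2.24 to 11.03), and without it 1.1% (0.226 to 3.17) and 0.674% (0.219 to 1.57). The intervals of Aged and Aged-GA overlap in each case.

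Memory CD8-gated T cells made up 1.93%, 3.56% and 6.87% of cells and NK-gated cells 3.41%, 2.33% and 1.87%. NK-gated cells gave 42.2%, 25.7% and 9.68% of all Klrc1 UMIs, while memory CD8-gated T cells gave 12.1%, 28.5% and 45.3%. For Klrk1 the shares were 56.5%, 29.9% and 18.2% from NK-gated cells and 6.17%, 13.9% and 28.0% from memory CD8-gated T cells. Klra4 stayed mostly in NK-gated cells, which gave 79.1%, 60.03% and 68.2% of its UMIs. Measured over all kept cells, where a change in cell numbers and a change in RNA per cell cannot be told apart, Klrc1 was at 14.3, 13.8 and 23.6 CPM and Klra4 at 30.2, 12.1 and 11.6 CPM.

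Over the genes with at least 50 UMIs in both libraries together, 8 of the 10 receptor genes could be compared between Aged and Young memory CD8-gated T cells, and 2 of them (Klra7 and Klrc2) were at least 2-fold higher and 0 at least 2-fold lower, where 8.34% and 0.823% of all genes were. For Aged-GA over Aged, 1 of 10 (Klra4) was at least 2-fold higher and 2 (Klra8 and Klrg1) at least 2-fold lower, where 0.775% and 1.3% of 8389 genes were. For Aged-GA over Young, 2 of 10 (Klrc2 and Klrk1) were at least 2-fold higher and 4 (Klra4, Klra8, Klrb1c and Klrg1) at least 2-fold lower, where 7.53% and 0.815% of 8097 genes were, with a median of 0.23 over all genes. With clusters in place of gates the numbers of genes 2-fold apart in these 3 comparisons were 4, 1 and 3, and Klra8 and Klrb1c changed direction, to 0.24 and 0.71 for Aged-GA over Young. With 10 CPM added to both sides the numbers were 0, 1 and 0. Each of these 4 genes was at 17.5 CPM or below in Young, and Klra4 had 23, 5 and 45 UMIs there. Markers of other cells were present in this class as well: 8 neutrophil markers summed to 854, 850 and 934 CPM with 1, 0 and 0 at 0, and 8 monocyte markers to 49.7, 464 and 221 CPM with 5, 0 and 0 at 0. The summed level of the 10 receptor genes was 580 CPM (542 to 620), 752 CPM (717 to 787) and 704 CPM (685 to 724). The part of the other cells in these levels was not tested.

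**Figure D5:**
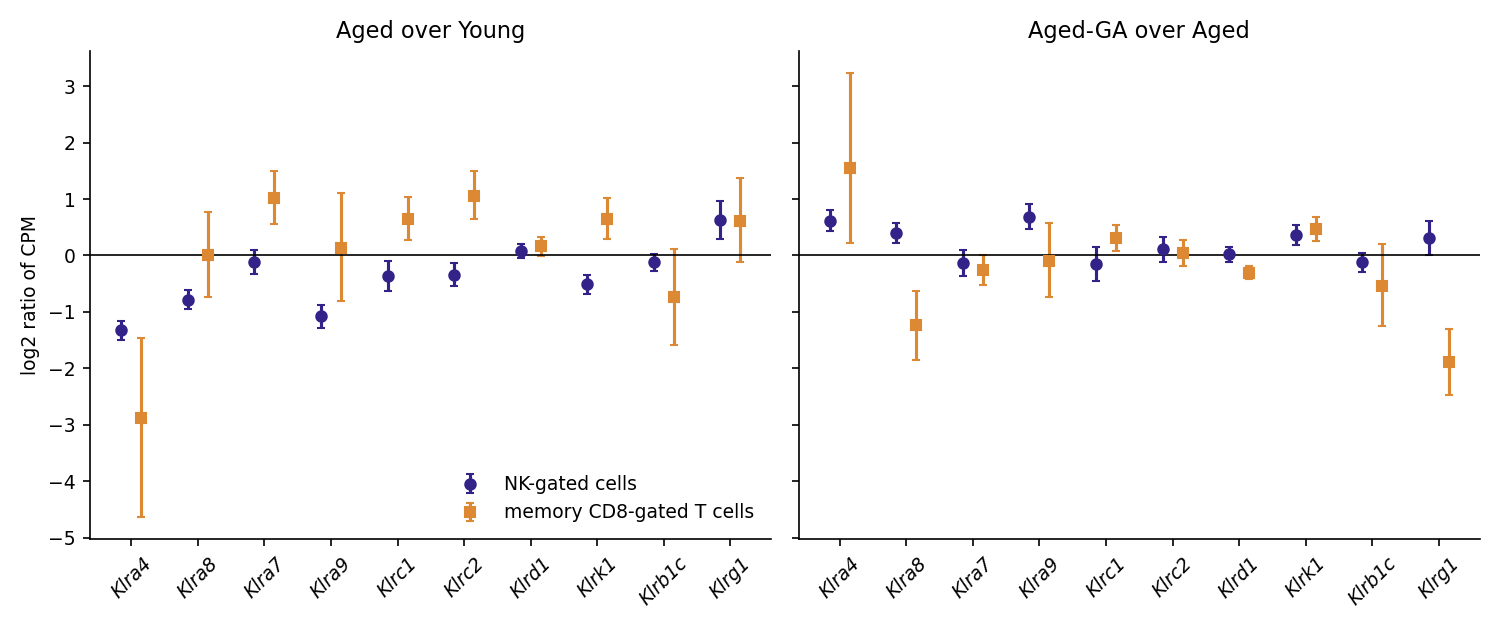
log2 ratio of CPM (y axis) of each receptor gene for Aged over Young (left) and Aged-GA over Aged (right), in NK-gated cells (circles) and memory CD8-gated T cells (squares), with exact 95% intervals of counting error. For Aged over Young, Klrc1, Klrc2 and Klrk1 lie below 0 in NK-gated cells and above 0 in memory CD8-gated T cells, and for Aged-GA over Aged Klrg1 lies at 0.31 and −1.88.

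The rest of the receptor family and its partners were described from lists of 16 other receptor genes, 12 adaptor and signaling genes and 12 ligand genes. Of the 16 other receptors, 15 were among the genes of the matrices and 8 could be compared between Aged and Young NK-gated cells. Their median log2 ratio was −0.23, with 3 higher and 5 lower, 1 of them (Klra5) past 2-fold. Klrb1f and Klrb1a, relatives of Klrb1c, were at 197 and 288 CPM in Young and at 112 and 182 CPM in Aged, and Klra3 was at 265 and 165 CPM. Klra1 went the other way, at 92.3, 124 and 178 CPM, and Klra5 was at 9.93, 57.8 and 16.4 CPM. Klre1, whose product pairs with the inhibitory and activating KLRI receptors, was at 1087, 940 and 916 CPM in NK-gated cells and at 53.7, 154 and 109 CPM in memory CD8-gated T cells. For Aged-GA over Aged in NK-gated cells 5 of the 8 were higher and 3 lower, with a median of 0.11 and Klra5 past 2-fold lower.

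Tyrobp, which encodes DAP12, the partner of Ly49D and Ly49H, was at 2721, 2627 and 2712 CPM, with a log2 ratio of −0.05 (−0.13 to 0.03) for Aged over Young. Hcst, which encodes DAP10, the partner of NKG2D, was at 759, 621 and 648 CPM, with a log2 ratio of −0.29 (−0.45 to −0.13). Ptpn6, which encodes the phosphatase SHP-1 that inhibitory receptors recruit, was at 62.5, 106 and 84.5 CPM, with a log2 ratio of 0.76 (0.28 to 1.25). Of the 11 adaptors compared, 7 were higher and 4 lower in Aged than in Young, with a median of 0.34 against 0.04 over all genes and 0 past 2-fold. In memory CD8-gated T cells Tyrobp was at 44.3, 106 and 47.4 CPM, and 10 of 10 adaptors compared were higher in Aged than in Young, with a median of 0.50 against 0.29.

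Of the 12 ligands, 4 could be compared between the NK-gated cells of Aged and Young, with a median of −0.02, 2 higher and 2 lower, and 0 past 2-fold. For Aged-GA over Aged 4 could be compared as well, with 3 higher and a median of 0.12. The other 1, which was not H2-K1, H2-D1 or H2-T23, was at least 2-fold lower, where 0.927% of all genes compared were. H2-K1 and H2-D1, the MHC class I genes whose products Ly49 receptors bind, were at 3804 and 3925 CPM in Young, 3682 and 3281 CPM in Aged and 3951 and 3825 CPM in Aged-GA. H2-T23, which encodes the Qa-1 molecule that CD94/NKG2 binds, was at 368, 370 and 406 CPM. The NKG2D ligand genes Raet1d, Raet1e and H60c had no UMI in either class in any library. Cdh1, which encodes E-cadherin, a ligand of KLRG1, had 1, 0 and 1 UMIs in NK-gated cells.

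Levels were compared by Pearson correlation on the log2 scale across 36 points, each a gated class with at least 50 cells in 1 library. Not every class thus had a point in each library. The marker genes of the gates, all genes whose symbol starts with Klr and genes with fewer than 200 UMIs were left out of the candidates. Among the 11180 genes left, the summed level of the 10 genes was most like that of Ifitm10 (r = 0.96), Serpinb6b (0.95), Serpinb9 (0.95), Gm14029 (0.94) and Cd160 (0.94). Among the 10 genes the most alike were Klrc1 and Klrc2 (r = 0.99), and the least alike were Klra4 and Klrd1 (r = 0.55). Of the windows at the end of the Klrc1 transcript 56.3% also occur in Klrc2, and the part of this in their likeness was not tested. The points of 1 library share its depth and its free RNA, and these correlations describe the order of classes only.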

How the data were processed

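The 3 libraries of PBMCs (1 per group) were analysed. Per the file headers, the authors ran Cell Ranger (5.0.0, whereas their methods name another version) and deposited raw UMI counts per gene and barcode. The genome build was mm10 per the submitters' processing notes. Reads that fit several genes are usually dropped by such counting, which lowers near-identical receptor genes. From the deposited counts, cells with fewer than 200 genes, with over 90% of the highest gene number or with over 7.5% mitochondrial UMIs were removed, as in the study's methods. Cells were gated on marker UMIs, and cells that passed several gates were left out (3 of 305, 33 of 272 and 18 of 254 at the NK gate). The receptor genes and lists were chosen with earlier results of these data known, and gate limits were set after values were seen. The named genes are the 10 receptors, members of the lists and the 5 genes most alike.

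Counts were summed per class and library and scaled to CPM. Ratios were compared over genes with at least 50 UMIs on both sides together, and genes past 2-fold were counted. Intervals (95%) are exact Poisson, binomial or conditional binomial and cover counting error only. A count of 0 was bounded by 3 counts. For shares, cells were thinned to 1000 UMIs. Scrublet's automatic limit called 437, 451 and 0 cells and had not worked for Aged-GA, so doublets were kept, and an alternative left out the top 5% of scores in each library. Gates and intervals were also run on simulated data. The simulated cells were drawn from the summed counts of cells that the same gates had called, and the simulated ratios from Poisson counts. These runs therefore cannot show how gates or intervals perform on real cells. NumPy 2.4.6, SciPy 1.17.1, scanpy 1.11.5, leidenalg 0.10.2 and Biopython 1.88 were used. Gene positions are from GENCODE (GRCm38) and promoters from RefSeq (GRCm38.p6), which had no entry used here for Klrd1 and Klrg1.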

Additional observations from a re-analysis of the deposited data

Results flagged for a closer look

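In at least 1 comparison, 6 of the receptor genes had log2 ratios of opposite sign in NK-gated cells and memory CD8-gated T cells. Each interval lay on its own side of 0. The share of all genes with this pattern was not computed, so the count has no background to be read against. The differences between the classes were not tested, since each group is 1 library.

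For Aged over Young, Klrc1 (NKG2A) was at −0.36 in NK-gated cells and 0.65 in memory CD8-gated T cells. Klrc2 (NKG2C) was at −0.34 and 1.06, and Klrk1 (NKG2D) at −0.51 and 0.65. With the stricter gate the memory CD8 ratio of Klrk1 turned to −0.13, so that its signs were no longer opposite. The median over all genes compared was 0.04 in NK-gated cells and 0.29 in memory CD8-gated T cells.

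For Aged-GA over Aged, Klra8 (Ly49H) was at 0.40 in NK-gated cells and −1.24 in memory CD8-gated T cells, and Klrg1 at 0.31 and −1.88. With clusters in place of gates the NK ratio of Klra8 turned to −0.0518. For Aged-GA over Young, Klra7 (Ly49G) was at −0.24 and 0.75, Klrc1 at −0.51 and 0.96, Klrc2 at −0.23 and 1.10, and Klrg1 at 0.93 and −1.28. The Aged-GA over Young ratios share libraries with the other comparisons and are not independent of them.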

How the results depend on the processing

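With 1 library per group no replicate could be left out. No paired analysis was possible because the labels number no replicates. Of 102 recomputed log2 ratios of the summed genes, 68 moved by less than their counting interval, 32 moved further and 2 changed sign. Of 998 log2 ratios of single genes, 867 moved less, 127 further and 4 changed sign. Sign changes were counted only where the main interval lay on 1 side of 0. Ratios of other single genes crossed 0 as well. In memory CD8-gated T cells the Aged over Young ratio of Klrb1c was −0.74 and ran from −2.04 to 1.41 over the settings. That of Klrg1 was 0.60 and ran from −0.54 to 0.99. The reported log2 ratios of the summed 10 receptor genes were −0.45 (Aged over Young), 0.20 (Aged-GA over Aged) and −0.24 (Aged-GA over Young) in NK-gated cells and 0.37, −0.09 and 0.28 in memory CD8-gated T cells, and those of NK-gated over memory CD8-gated T cells were 3.56, 2.74 and 3.04. With clusters in place of gates, the NK ratios became −0.25 and 0.0034 for the first and second comparison, the memory CD8 ratios 0.53, 0.0187 (reversed) and 0.55, and the class ratios 3.93, 3.15 and 3.13. Of the single genes with a main interval on 1 side of 0, Klra8 changed sign there, to −0.0518 for Aged-GA over Aged in NK-gated cells. For Aged-GA over Young in memory CD8-gated T cells, Klra8 (0.24) and Klrb1c (0.71) changed sign. The looser gate moved the Aged-GA over Young memory CD8 ratio to 0.41 and the class ratios to 3.74 (Young) and 3.095 (Aged-GA). The stricter gate gave memory CD8 ratios of 0.10 for Aged over Young and 0.0582 for Aged-GA over Young, a class ratio of 3.30 (Young), and Klrk1 at −0.13 for Aged over Young in memory CD8-gated T cells. Without haemoglobin, mitochondrial and ribosomal protein genes in the total, the memory CD8 ratios were 0.18, −0.0154 and 0.16 and the class ratios 2.98, 2.38 and 2.57. As a mean of single-cell CPM, the NK ratios were −0.36 and 0.12, the memory CD8 ratio of Aged-GA over Aged −0.18 and the class ratios 2.62 (Aged) and 2.91 (Aged-GA). Without the highest doublet scores the memory CD8 ratio of Aged over Young was 0.50. A pair of settings was chosen after seeing the data. With cells that passed several gates kept, the NK ratios were −0.55 (Aged over Young) and −0.33 (Aged-GA over Young) and the class ratios 2.60 (Aged) and 2.91 (Aged-GA). Without Gzmk-positive cells the memory CD8 ratios were 0.0169 (Aged-GA over Aged, reversed) and 0.41 (Aged-GA over Young) and the class ratios 3.72 (Young) and 2.88 (Aged). The mean number of the 4 Ly49 genes per NK-gated cell was 1.10, 0.757 and 0.886 at 500 UMIs per cell and 2.26, 1.70 and 1.97 without thinning, lowest in Aged each time. The number of receptor genes 2-fold apart between Aged and Young was 2 in NK-gated cells, 0 with clusters and 1 as a mean of single-cell CPM. In memory CD8-gated T cells it was 2, 4 with clusters and 0 or 1 under 6 other settings, and for Aged-GA over Aged and over Young it was 3 and 6, 1 and 3 with clusters, and 1 and 0 with 10 CPM added to both sides. Without a minimum of UMIs 27.7% to 47.5% of all genes were 2-fold apart, against 1.28% to 24.7% with it. The causes of these shifts were not tested. In NK-gated cells the Aged over Young ratio stayed between −1.40 and −0.97 for Klra4, between −1.18 and −0.81 for Klra9 and between 0.45 and 0.73 for Klrg1. At this depth a receptor gene without a UMI in a cell may still be expressed, and no interval covers the spread between mice.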

Other observations

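Receptor RNA was also present in cells outside the gated classes. Cells that passed no gate (950, 703 and 1263) held 8.37%, 14.97% and 13.4% of all Klra4 UMIs and 11.8%, 15.5% and 20.4% of all Klrk1 UMIs. Cells that passed several gates (115, 605 and 552), which can be doublets, held 0.275%, 10.5% and 3.99% of all Klra4 UMIs. CD8 T cells between the naive and memory gates held the 4 Ly49 genes in a make-up that differed between libraries, with Klra7 and Klra9 at 53.6% (43.9 to 63.1), 67.6% (55.5 to 78.2) and 94.7% (86.9 to 98.5) of 112, 71 and 75 UMIs. Klrd1 was found in plasmacytoid dendritic cells at 484 and 445 CPM in Aged and Aged-GA, from 2 and 4 cells only.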
